A study of Homo sapiens with 7 samples.

Results

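A set of 8 nuclear or imprinted noncoding RNAs was followed in human β-like cells with and without induced knockdown of METTL14. They were chosen by name: 7SK (ENSG00000202198), RMRP, RPPH1, MALAT1, NEAT1, KCNQ1OT1, MEG3 and H19, which are 8 of the 66025 genes in the table. Insulin-expressing β-like cells had been sorted at stage 6 of differentiation from H1, an established human embryonic stem cell line, and their total RNA was sequenced from 7 libraries. The groups were iKD2 Dox+ (libraries a, b and c), in which doxycycline (Dox) induced an shRNA against METTL14, iKD2 Dox- (b and c), the same transduced line without Dox, and iSCR Dox+ (a and b), a line with a scramble shRNA that also received Dox. Both lines were selected with puromycin after lentiviral transduction, so the iKD2 cells without Dox differ from the iSCR cells in construct as well as in Dox. METTL14 is a subunit of the complex that writes N6-methyladenosine (m6A) on RNA, and the comparisons ask whether these RNAs differed when it was targeted.

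The 3 small RNAs are made by RNA polymerase III and act as scaffolds or enzymes. 7SK holds the elongation factor P-TEFb in an inactive complex, RMRP is the RNA of RNase MRP, which processes ribosomal RNA precursors, and RPPH1 is the RNA of RNase P, which trims the leader from tRNA precursors. The 5 long RNAs are made by RNA polymerase II. MALAT1 lies in nuclear speckles and is a known carrier of m6A, and NEAT1 is the scaffold of paraspeckles. KCNQ1OT1, MEG3 and H19 are expressed from one parental allele, KCNQ1OT1 from the paternal and MEG3 and H19 from the maternal copy, beside protein-coding genes that are imprinted too.

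The small RNAs are shown as sequence because near-identical copies decide which of their reads can be placed. All are 5′ to 3′ as transcribed, from the GENCODE 29 transcripts on GRCh38. In 7SK (chromosome 6, 52995620 to 52995950, plus strand, 331 nt, bases 1 to 300 shown), capitals mark the bases covered by a 31-base word that also occurs in RN7SKP71, a pseudogene copy on chromosome 12. In RMRP (chromosome 9, 35657751 to 35658018, minus strand, 268 nt, whole), capitals mark the 264 bases that a second gene identifier of the same locus repeats. In RPPH1 (chromosome 14, 20343075 to 20343407, minus strand, 333 nt, bases 1 to 300 shown), capitals mark the bases covered by words of ENSG00000259001, a longer gene on the same strand.
7SK: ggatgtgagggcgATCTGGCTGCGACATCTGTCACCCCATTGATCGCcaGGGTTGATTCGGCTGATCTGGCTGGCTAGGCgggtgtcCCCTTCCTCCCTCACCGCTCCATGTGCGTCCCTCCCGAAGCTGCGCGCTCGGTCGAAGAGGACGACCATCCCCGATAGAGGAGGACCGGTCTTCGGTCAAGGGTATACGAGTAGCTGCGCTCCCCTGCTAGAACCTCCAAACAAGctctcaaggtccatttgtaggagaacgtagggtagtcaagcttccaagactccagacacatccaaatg
RMRP: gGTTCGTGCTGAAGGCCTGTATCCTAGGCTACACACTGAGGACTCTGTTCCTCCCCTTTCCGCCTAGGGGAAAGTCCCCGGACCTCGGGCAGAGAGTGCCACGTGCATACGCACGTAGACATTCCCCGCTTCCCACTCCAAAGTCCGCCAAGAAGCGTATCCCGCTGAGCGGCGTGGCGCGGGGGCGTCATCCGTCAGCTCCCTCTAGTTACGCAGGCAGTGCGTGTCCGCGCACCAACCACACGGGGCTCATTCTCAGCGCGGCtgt
RPPH1: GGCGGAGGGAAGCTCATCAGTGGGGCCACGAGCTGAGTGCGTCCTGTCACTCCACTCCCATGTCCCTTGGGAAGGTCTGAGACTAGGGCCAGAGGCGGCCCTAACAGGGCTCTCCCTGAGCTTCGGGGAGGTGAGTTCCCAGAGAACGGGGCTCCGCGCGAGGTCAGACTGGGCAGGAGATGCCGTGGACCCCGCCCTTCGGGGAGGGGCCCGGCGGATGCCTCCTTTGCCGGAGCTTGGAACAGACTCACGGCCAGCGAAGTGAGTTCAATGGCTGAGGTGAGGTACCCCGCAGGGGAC
A 31-base word is the default unit by which the aligner Kallisto matches reads, although the setting used was not stated. Of the 301 such words of 7SK, 89.0% also occurred in transcripts of other loci, and of those of RPPH1 100% occurred in ENSG00000259001 alone. Of RMRP, 98.3% occurred in its second identifier and 0% in any other locus. The long RNAs shared between 0.992% (MALAT1) and 4.22% (KCNQ1OT1) of theirs on the same strand.

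Some of these overlaps were visible in the counts. RMRP was whole in all 7 libraries, and its second identifier was listed at 0 in all 7. RN7SK, a second identifier of the 7SK locus that holds 99.0% of the words of 7SK, was also at 0 in all 7. MALAT1 was also whole in all 7. 7SK, RPPH1, NEAT1 and KCNQ1OT1 were not whole in any library, MEG3 was not in 3 and H19 not in 2, to a tolerance of 0.001, as Kallisto divides reads that fit several genes. The 298 other genes named 7SK or RN7SKP together held between 0.0334% and 1.07% as many counts as 7SK itself, so that few reads were assigned to the copies. At RPPH1, ENSG00000259001 (chromosome 14, 20343048 to 20343685) took the larger part, and RPPH1 received between 32.6% and 42.0% of the counts of the pair. RPPH1 alone is therefore an uncertain value, and the sum of both is given beside it.

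**Figure D1:**
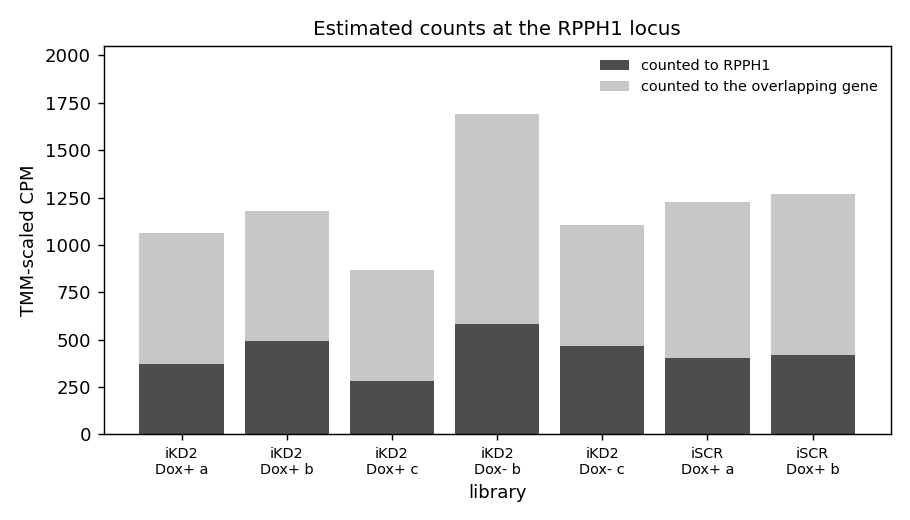
Level of RPPH1 (dark) and of ENSG00000259001, the gene that contains it (light), as TMM-scaled CPM, in each of the 7 libraries. The summed bar is highest in iKD2 Dox- b, at 1690.3, and lowest in iKD2 Dox+ c, at 869.

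Total estimated counts ranged from 14875429 to 20639156 per library. Levels below are CPM, the standard count per unit of sequencing depth, with library size adjusted for composition by TMM, and are listed in the order of the library letters. Insulin (INS) stood at 11365 CPM or more in every library and chromogranin A (CHGA) at 12446 or more, while of 3 pluripotency markers NANOG did not exceed 0.956 and POU5F1 4.06, and LIN28A ranged from 1.09 to 57.6, highest in iKD2 Dox+ a. The α-cell hormone gene GCG (5039 to 12846 CPM) and the δ-cell hormone gene SST (1988 to 3904 CPM) were present in every library. In bulk RNA, fewer cells of a type and less RNA per cell cannot be told apart. INS was the one marker of 31 past the test (edgeR quasi-likelihood test, Benjamini-Hochberg), being lower in iKD2 Dox+ against iSCR. DESeq2 called CHGA lower and KRT19, SOX9, COL1A2 and COL3A1 higher against iKD2 Dox-. Against iSCR Dox+ it called INS, PDX1 and TTR lower and KRT19 higher in iKD2 Dox+. Between the controls it called INS and PCSK1, 1 lower and 1 higher, and COL3A1 lower. Limma voom called CHGA lower against iKD2 Dox-, and INS lower in both iKD2 groups against iSCR Dox+. Summed β-cell markers were 24315 to 28371 CPM in iKD2 Dox+, 32472 to 35885 in iKD2 Dox- and 38474 to 38910 in iSCR, and 5 mesenchymal markers summed to 671 to 1077, 277 to 389 and 607 to 685. The 4 ductal markers summed to 809 to 943, 419 to 544 and 477 to 557. The part of these markers in the results on the noncoding RNAs was not tested. METTL14 itself was 18.7, 16.3 and 49.1 CPM in the iKD2 Dox+ libraries, 39.4 and 22.6 in the iKD2 Dox- libraries, and 36.1 and 32.2 in the iSCR ones. The highest level of all 7 was in the library labelled iKD2 Dox+ c, which goes against that label, and values below give it by its label only. Its log2 fold change was -0.14 ± 0.63 (SE) against iKD2 Dox- (adjusted p = 1) and -0.28 ± 0.63 against iSCR Dox+ (adjusted p = 0.963).

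Per kilobase of annotated exon, the members spanned more than 4 orders of magnitude, and their order, with each gene counted under its own identifier, was the same in all 7 libraries. Mean levels per kilobase were 14817 CPM for 7SK, 3237 for RMRP, 2180 for MALAT1, 1294 for RPPH1, 14.996 for NEAT1, 5.59 for KCNQ1OT1, 1.49 for MEG3 and 0.213 for H19. The ranges over libraries overlapped between RMRP and MALAT1 (2311 to 3999 against 1756 to 2639) and between MEG3 and H19 (0.412 to 2.81 against 0 to 0.639). No other neighbours in that order overlapped, although MALAT1 and RPPH1 came close, at a lowest value of 1756 against a highest of 1751. The exon lengths of NEAT1 and MEG3 include isoforms that may not all be present, which lowers their value per kilobase. The place of RPPH1 depends on how its reads were divided. Summed with ENSG00000259001, an alternative added after the data had been seen, its mean was 3608 CPM per kilobase over the 333 nt of RPPH1, above MALAT1 in 7 of 7 libraries, and 1883 over the 638 nt of the longer gene, above MALAT1 in 1 of 7. Before division by length, MALAT1 ranked second and 7SK 11th of all genes by mean CPM.

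None of the 8 members passed an adjusted p of 0.05 in any of the 3 comparisons by the edgeR quasi-likelihood test. All 8 had passed the filter on low counts. Of the 22926 genes tested, 0.0393% passed in iKD2 Dox+ against iKD2 Dox-, 0.0262% in iKD2 Dox+ against iSCR Dox+ and 0.0131% in iKD2 Dox- against iSCR Dox+. At the criterion of the study, which asked for more than 1.5-fold and took p at 0.05 without adjustment, 0 of 8 passed in each comparison, beside 3.55%, 6.52% and 4.38% of all genes. At an unadjusted p under 0.05 alone, 7SK and MALAT1 passed against iKD2 Dox- (background 3.72%), and no member passed against iSCR Dox+ (6.72%) or between the controls (4.45%). DESeq2 called 0 members in each comparison, and limma voom called 1, MALAT1 against iKD2 Dox-. The number of all genes that limma voom called is not given, so this 1 has no background beside it. Both knockdown comparisons share the iKD2 Dox+ libraries, so their values are not independent. The groups did not overlap for 2 of 8 members against iKD2 Dox- (20.3% of all genes) and for 4 between the controls (33.2%). Against iSCR they did not overlap for 2, NEAT1 and H19 (20.6%). Both were higher, as in 11.4% of all genes, and none lower, where 9.23% of all genes were lower. For H19 this rested on an estimated count of 0.5 in iKD2 Dox+ b, against 0 in both iSCR libraries. H19 passed the filter on low counts through the iKD2 libraries alone. Its place here and among the 4 between the controls is therefore no support. Log2 fold changes were below 0 for 6 of 8 against iKD2 Dox- (median -0.31, all genes 0.015), 4 of 8 against iSCR (median -0.034, all genes 0.080) and 2 of 8 between the controls (median 0.083, all genes 0.044).

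**Figure D2:**
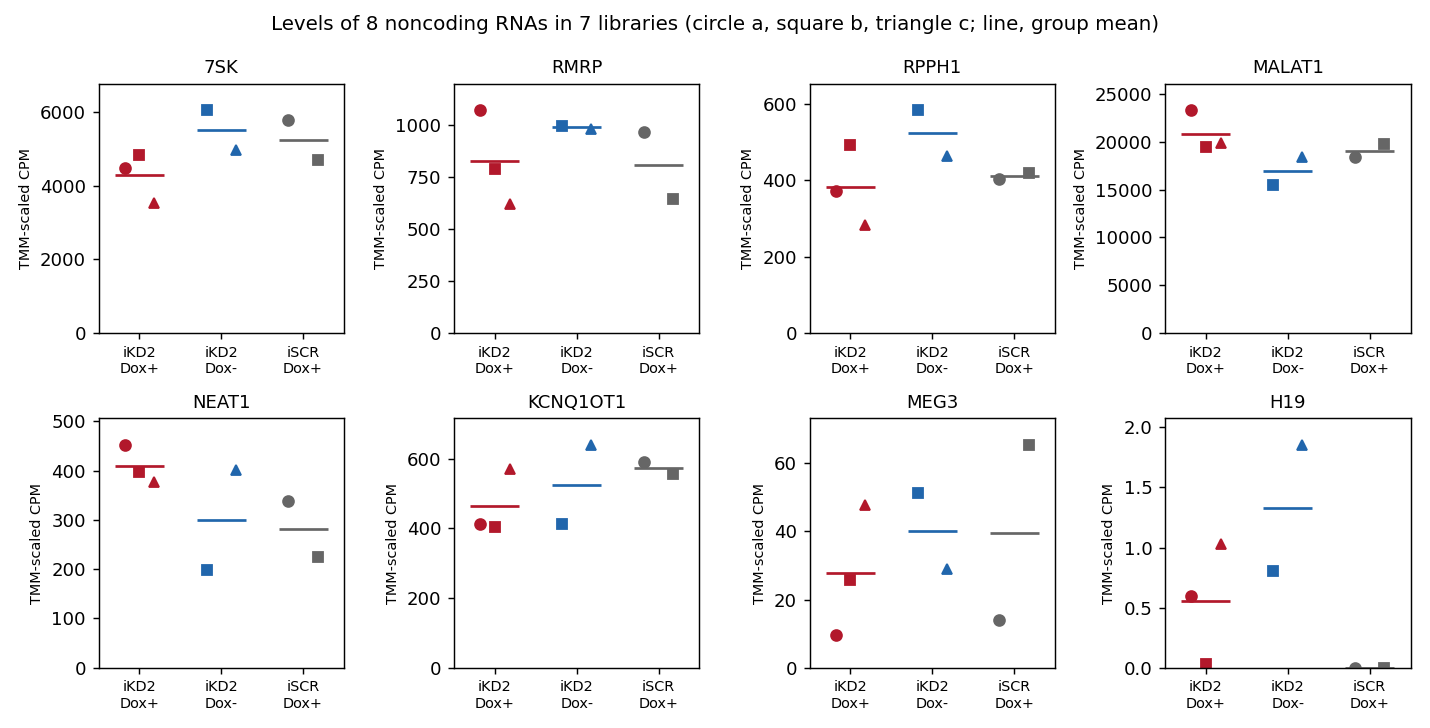
TMM-scaled CPM of each member, on a linear axis from 0, in iKD2 Dox+ (red), iKD2 Dox- (blue) and iSCR Dox+ (grey), with a symbol for each library and a line at the group mean. The 3 iKD2 Dox+ libraries sit below both iKD2 Dox- libraries for 7SK and above them for MALAT1, while most other groups overlap.

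7SK was 4478, 4840.5 and 3518 CPM in the iKD2 Dox+ libraries, 6044 and 4961 in the iKD2 Dox- libraries, and 5781 and 4709 in the iSCR ones. Every iKD2 Dox+ library was below both iKD2 Dox- libraries, as were the groups of 11.6% of all genes tested, and iKD2 Dox+ b overlapped with iSCR Dox+ b. Its log2 fold change was -0.36 ± 0.14 (SE) against iKD2 Dox- (adjusted p = 1) and -0.29 ± 0.14 against iSCR Dox+ (adjusted p = 0.699) by edgeR. Between the controls it was 0.069 ± 0.16 (adjusted p = 1). Without library c of iKD2 Dox+, the lowest of all, the first value was -0.24 and the second -0.17, and without iKD2 Dox- b the first was -0.22. The second was -0.14 without iSCR Dox+ a and -0.43 without iSCR Dox+ b.

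RMRP was 1072, 788 and 619 CPM in the iKD2 Dox+ libraries, 995 and 984 in the iKD2 Dox- libraries, and 967 and 647 in the iSCR ones. The iKD2 Dox+ libraries spread from the lowest to the highest value of all 7, and overlapped with both controls. The log2 fold change was -0.26 ± 0.21 against iKD2 Dox- (edgeR adjusted p = 1) and 0.034 ± 0.21 against iSCR Dox+ (adjusted p = 0.992). The first was -0.094 without iKD2 Dox+ c and -0.49 without iKD2 Dox+ a. The second turned to -0.20 without iKD2 Dox+ a and to -0.23 without iSCR Dox+ b.

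RPPH1 was 371, 493 and 283 CPM in the iKD2 Dox+ libraries, 583 and 464 in the iKD2 Dox- libraries, and 402 and 419 in the iSCR ones. Only iKD2 Dox+ b reached into the range of the controls without Dox. The log2 fold change was -0.45 ± 0.22 against iKD2 Dox- (edgeR adjusted p = 1) and -0.10 ± 0.22 against iSCR Dox+ (adjusted p = 0.962). The first was -0.28 when iKD2 Dox+ c was left out, -0.29 without iKD2 Dox- b, and -0.68 when iKD2 Dox+ b was. Counted together with ENSG00000259001, an alternative added after the data had been seen, it was -0.43 ± 0.18 (edgeR unadjusted p = 0.0281, adjusted p = 1) and -0.27 ± 0.18 (adjusted p = 0.712). In iKD2 Dox- against iSCR Dox+ the groups of RMRP and of RPPH1 did not overlap, both higher without Dox, as in 19.9% of all genes, with log2 fold changes of 0.29 ± 0.23 (adjusted p = 0.864) and 0.35 ± 0.25 (adjusted p = 0.829).

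The 3 small members were all lowest in the same library, iKD2 Dox+ c. Among the small RNAs of the other lists at a mean of 1 CPM or more, 12 of 16 were also lowest there, not counting TERC, the telomerase RNA, which was at 0 there and in 2 other libraries. The share of all genes that were lowest in that library was not counted, so these counts have no background beside them. Some of the 16 were near 0 there, such as VTRNA1-1 at 0.0572 CPM. RN7SL2, the RNA of the signal recognition particle, was 8403 CPM in that library against 11041 to 16001 in the others. RNU4-2, a U4 spliceosomal RNA, was 37.6 CPM there against 74.9 to 110 elsewhere. Of the other small RNAs of RNA polymerase III, 8 of 9 tested had a log2 fold change below 0 against iKD2 Dox- (median -0.44, all genes 0.015) and 9 of 9 against iSCR Dox+ (median -0.32, all genes 0.080). Without iKD2 Dox+ c these were 7 and 7 of 9, with medians of -0.24 and -0.18. Without iKD2 Dox- b the first was 5 of 9 (median -0.26), and without iSCR Dox+ a the second was 4 of 9 (median 0.021, all genes 0.28). RNY1, RNY4, VTRNA1-1, RNU6ATAC and BCYRN1, which are among the 9, had means of only 0.886 to 6.51 CPM. Their SEs were 1.63 to 3.01 against iKD2 Dox-, so their signs say little. Of the spliceosomal and telomerase RNAs, 7 of 8 were below 0 against iKD2 Dox- (median -0.33), and 4 of 8 without iKD2 Dox+ c (median -0.0078). Against iSCR Dox+, 6 of 8 were below 0 (median -0.41), and 5 of 8 without iKD2 Dox+ c (median -0.060), or 3 of 8 without iSCR Dox+ a (median 0.030). RNU4ATAC, RNU11 and RNU12 of this list had means of 4.40 to 10.4 CPM, with SEs of 1.20 to 2.08 against iKD2 Dox-. None of either list passed an adjusted p of 0.05 by edgeR, DESeq2 or limma voom. At an unadjusted p under 0.05 by edgeR there was 1, RN7SL2, lower against iKD2 Dox-. RN7SL1 and RN7SL2 are near-identical, as are RNU4-1 and RNU4-2, and none of the 4 was whole in any library.

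**Figure D3:**
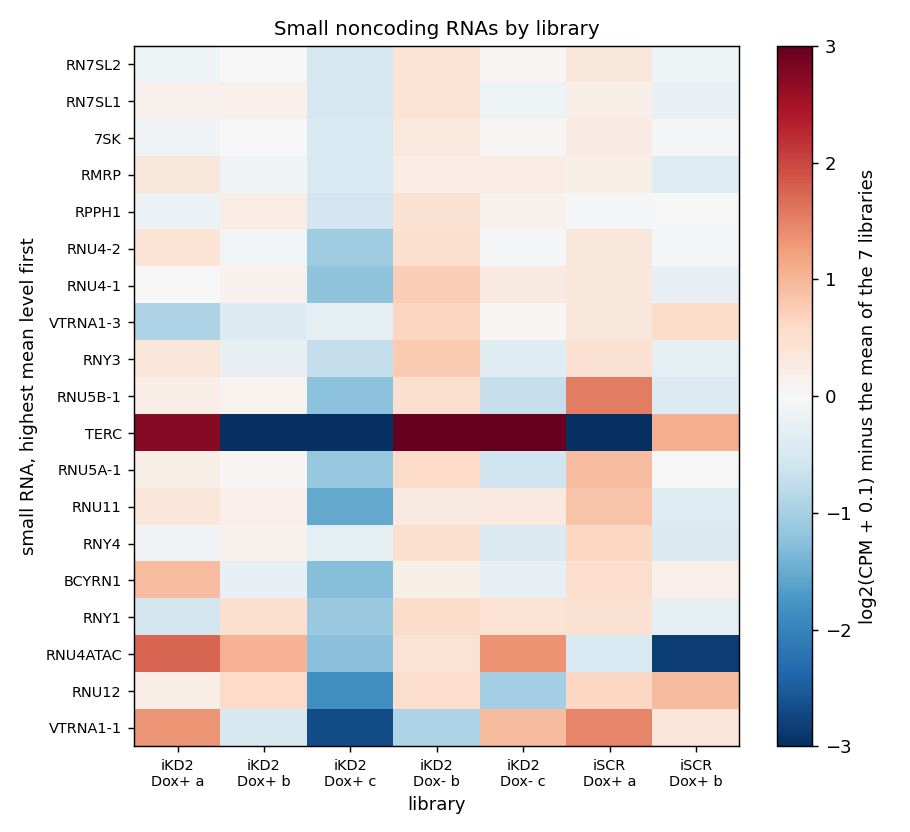
Heat map of 19 small RNAs (rows) in the 7 libraries (columns). Colour gives log2(CPM + 0.1) minus the mean of the row, blue for lower and red for higher, with colours ending at 3. The column of iKD2 Dox+ c is blue throughout and holds the lowest value of 15 of the 19, while TERC is at 0 in 3 libraries. The share of all genes that were lowest in that library was not counted.

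The proteins that bind 7SK and the P-TEFb subunits form 1 list. Of its 7 genes, 5 had a log2 fold change below 0 against iKD2 Dox- (median -0.35, all genes 0.015) and 5 against iSCR Dox+ (median -0.53, all genes 0.080). Without iKD2 Dox- b the first was 3 of 7 (median 0.042, all genes 0.15). Without iSCR Dox+ b or iKD2 Dox+ a the second was 4 of 7 (medians -0.22 and -0.24). HEXIM1, which inhibits P-TEFb when bound to 7SK, was 73.8, 53.0 and 51.3 CPM in iKD2 Dox+, 74.5 and 48.1 in iKD2 Dox-, and 119 and 92.6 in iSCR Dox+. All iKD2 Dox+ libraries lay below iSCR Dox+ (log2 fold change -0.83, edgeR adjusted p = 0.699) and overlapped with iKD2 Dox-. The kinase subunit CDK9 ranged from 37.7 to 98.3 CPM and the cyclin CCNT2 from 30.9 to 82.5. None passed by edgeR, DESeq2 or limma voom, and at an unadjusted p under 0.05 HEXIM1 alone passed, against iSCR Dox+. The 10 proteins of RNase P and RNase MRP were at low levels, summing to between 62.2 and 104 CPM per library, and none passed by any of the 3 tools or at an unadjusted p under 0.05 in edgeR. Their highest were RPP14 (2.43 to 32.2 CPM), POP4 (0.542 to 23.1) and RPP25 (2.71 to 23.9).

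MALAT1 was 23303, 19448 and 19840.2 CPM in the iKD2 Dox+ libraries, 15507 and 18413 in the iKD2 Dox- libraries, and 18454 and 19749 in the iSCR ones. All 3 iKD2 Dox+ libraries were above both iKD2 Dox- libraries, as in 8.74% of genes, and they overlapped with iSCR Dox+. Its log2 fold change was 0.30 ± 0.10 against iKD2 Dox- (adjusted p = 1) and 0.13 ± 0.10 against iSCR Dox+ (adjusted p = 0.775) by edgeR, and -0.17 ± 0.11 between the controls (adjusted p = 0.826). By limma voom the first was 0.37 with an adjusted p of 0.028, and by DESeq2 0.31 with an adjusted p of 0.416. The limma voom call has no share of all genes beside it. Without iKD2 Dox- b, the lowest library, the edgeR value was 0.17, and without iKD2 Dox+ a the value against iSCR was 0.040.

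NEAT1 was 452, 397 and 378 CPM in the iKD2 Dox+ libraries, 199 and 402 in the iKD2 Dox- libraries, and 337 and 225 in the iSCR ones. The iKD2 Dox+ libraries were all above iSCR Dox+, as in 11.4% of genes, and overlapped with iKD2 Dox-. The log2 fold change was 0.44 ± 0.26 against iKD2 Dox- (edgeR adjusted p = 1) and 0.54 ± 0.27 against iSCR Dox+ (adjusted p = 0.699). The first rested on 1 control library, at 0.016 when iKD2 Dox- b was left out and 1.03 when iKD2 Dox- c was. The second was 0.28 without iSCR Dox+ b and 0.86 without iSCR Dox+ a.

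The proteins of the bodies that MALAT1 and NEAT1 occupy were counted as lists. Of 10 paraspeckle proteins, 5 were above 0 against iKD2 Dox- (median -0.058) and 6 against iSCR Dox+ (median 0.045). SFPQ ranged from 342 to 646 CPM, HNRNPK from 411 to 537 and NONO from 275 to 447. Of 8 nuclear speckle proteins, 5 and 6 were above 0 (medians 0.16 and 0.069). With 1 library left out the medians spanned -0.16 to 0.024 and -0.078 to 0.077 for the first list, and 0.00086 to 0.16 and -0.032 to 0.13 for the second. The most abundant of the second list were SRRM2 at 1466 to 1721 CPM, SON at 553 to 705 and ACIN1 at 208 to 329. None of the 18 passed an adjusted p of 0.05 by edgeR, DESeq2 or limma voom. At an unadjusted p under 0.05 by edgeR, 1 paraspeckle gene was lower against iKD2 Dox-, and 1 was higher and 1 lower against iSCR Dox+. Of 13 other long noncoding RNAs none passed by the 3 tools, and NORAD, TUG1 and MIAT, the most abundant, had log2 fold changes of 0.27, 0.30 and -0.12 against iKD2 Dox- and 0.42, 0.37 and -0.30 against iSCR Dox+. NORAD had an unadjusted p under 0.05 in the second.

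**Figure D4:**
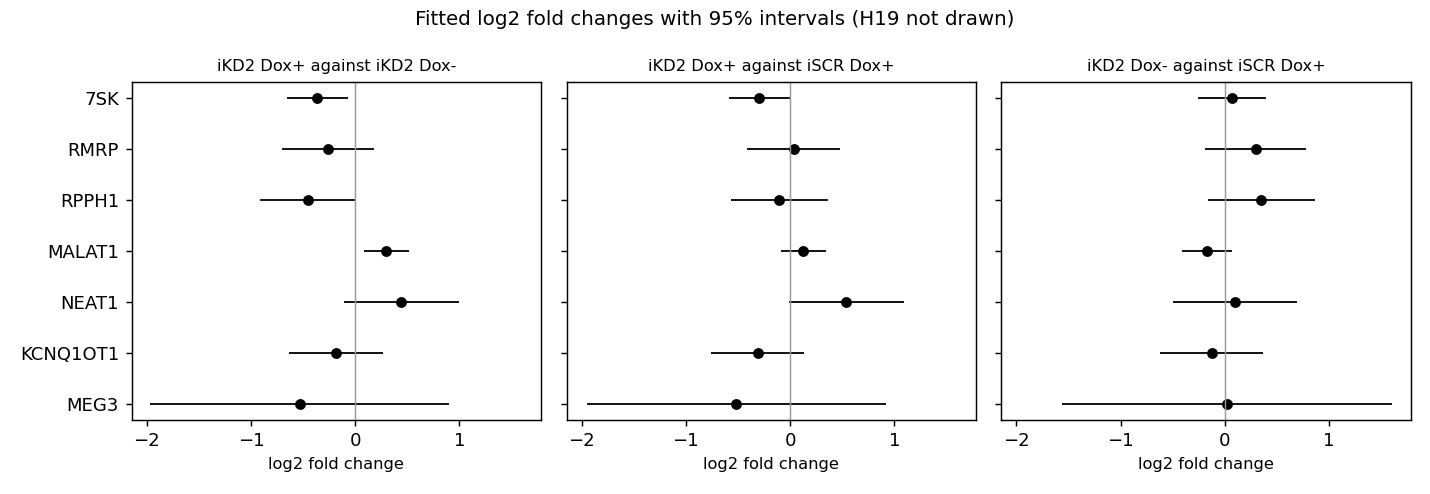
Fitted log2 fold changes (points) and their 95% intervals (lines) for 7 members in the 3 comparisons, on 1 scale. The intervals of 7SK and MALAT1 leave out 0 in the first panel, before any adjustment for the number of genes, and those of MEG3 are the widest.

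KCNQ1OT1 (chromosome 11, 2608328 to 2699994, minus strand), which silences its neighbours on the paternal chromosome, was 413, 405 and 570.0 CPM in the iKD2 Dox+ libraries, 412 and 639 in the iKD2 Dox- libraries, and 591 and 557 in the iSCR ones. The groups overlapped in every comparison. Its log2 fold change was -0.18 ± 0.22 against iKD2 Dox- (edgeR adjusted p = 1) and -0.31 ± 0.22 against iSCR Dox+ (adjusted p = 0.714), the latter between -0.23 and -0.49 with 1 library left out. The first turned to 0.16 without iKD2 Dox- c. KCNQ1, which KCNQ1OT1 overlaps on the opposite strand, was at 0 in iKD2 Dox+ a and in both iSCR Dox+ libraries, at 3.65 and 12.1 CPM in the remaining iKD2 Dox+ libraries, and at 10.7 and 1.09 in the iKD2 Dox- ones. It was the one gene of 5 overlapping KCNQ1OT1 to reach a mean of 1 CPM, and DESeq2 called it higher in iKD2 Dox+ against iSCR, which edgeR (adjusted p = 0.699) and limma voom did not. CDKN1C, a cell cycle inhibitor of the same domain, ranged from 45.0 to 217 CPM with all groups overlapping.

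H19 (chromosome 11, 1995176 to 2001470, minus strand) was almost absent beside its neighbour IGF2. The estimated counts of H19 came to 10, 0.5 and 18 in the iKD2 Dox+ libraries, 16.5 and 34 in the iKD2 Dox- libraries, and 0 in both iSCR Dox+ libraries. A count of 0 was taken to allow up to 3 counts, or 0.203 and 0.201 CPM in those libraries, and this limit covers counting error only. The upper end of a 95% Poisson interval for 0 is higher, at 3.69 counts, and would lower the folds that follow. The mean of iKD2 Dox- (1.33 CPM) was 6.58-fold the mean of those limits, or 3.98-fold without library c and 9.17-fold without library b. The counting error and spread of iKD2 Dox- itself are left out, so these values are not lower bounds. With 0 in both iSCR libraries, H19 passed the filter on low counts through the iKD2 libraries alone. No fold is given for iKD2 Dox+, where library b was itself under the limit, although all 3 libraries lay above the 0 of iSCR (adjusted p = 0.704 by edgeR). The iKD2 Dox- and iSCR Dox+ groups did not overlap, as in 19.9% of genes, and the test did not pass (edgeR adjusted p = 0.826). IGF2, which encodes a fetal growth factor, was the most abundant gene of the imprinted lists, at 25024 to 31956 CPM. The counts of IGF2 were not whole in any of the 7 libraries, and which genes shared its reads was not tested. Its log2 fold changes were 0.19 against iKD2 Dox- (adjusted p = 1) and 0.014 against iSCR Dox+ (adjusted p = 0.993).

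MEG3 (chromosome 14, 100779410 to 100861031, plus strand) was 9.57, 25.7 and 47.9 CPM in the iKD2 Dox+ libraries, 51.3 and 28.95 in the iKD2 Dox- libraries, and 13.9 and 65.3 in the iSCR ones. It was the most variable member after H19, with a 6.82-fold range over the 7 libraries, and its groups overlapped in every comparison. Its log2 fold change was -0.53 ± 0.69 against iKD2 Dox- (edgeR adjusted p = 1) and -0.51 ± 0.69 against iSCR Dox+ (adjusted p = 0.922). The first was -0.069 when iKD2 Dox- b was left out and -1.19 without iKD2 Dox+ c, and the second turned to 0.99 without iSCR Dox+ b. DLK1, a Notch ligand homologue expressed from the paternal copy of this domain, was 1335, 1733 and 1746 CPM in iKD2 Dox+, 2344 and 2042 in iKD2 Dox-, and 1594 and 2072 in iSCR Dox+. RTL1, a gene derived from a retrotransposon, was 79.9, 107 and 120 CPM in iKD2 Dox+, 204 and 189 in iKD2 Dox-, and 135 and 97.3 in iSCR Dox+. Both were lower in every iKD2 Dox+ library than in iKD2 Dox-, as in 11.6% of all genes, with log2 fold changes of -0.45 (edgeR adjusted p = 1) and -0.94 (adjusted p = 0.885), and RTL1 passed by DESeq2 alone. Both overlapped with iSCR Dox+. DIO3, a thyroid hormone deiodinase, ranged from 0.936 to 27.0 CPM.

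**Figure D5:**
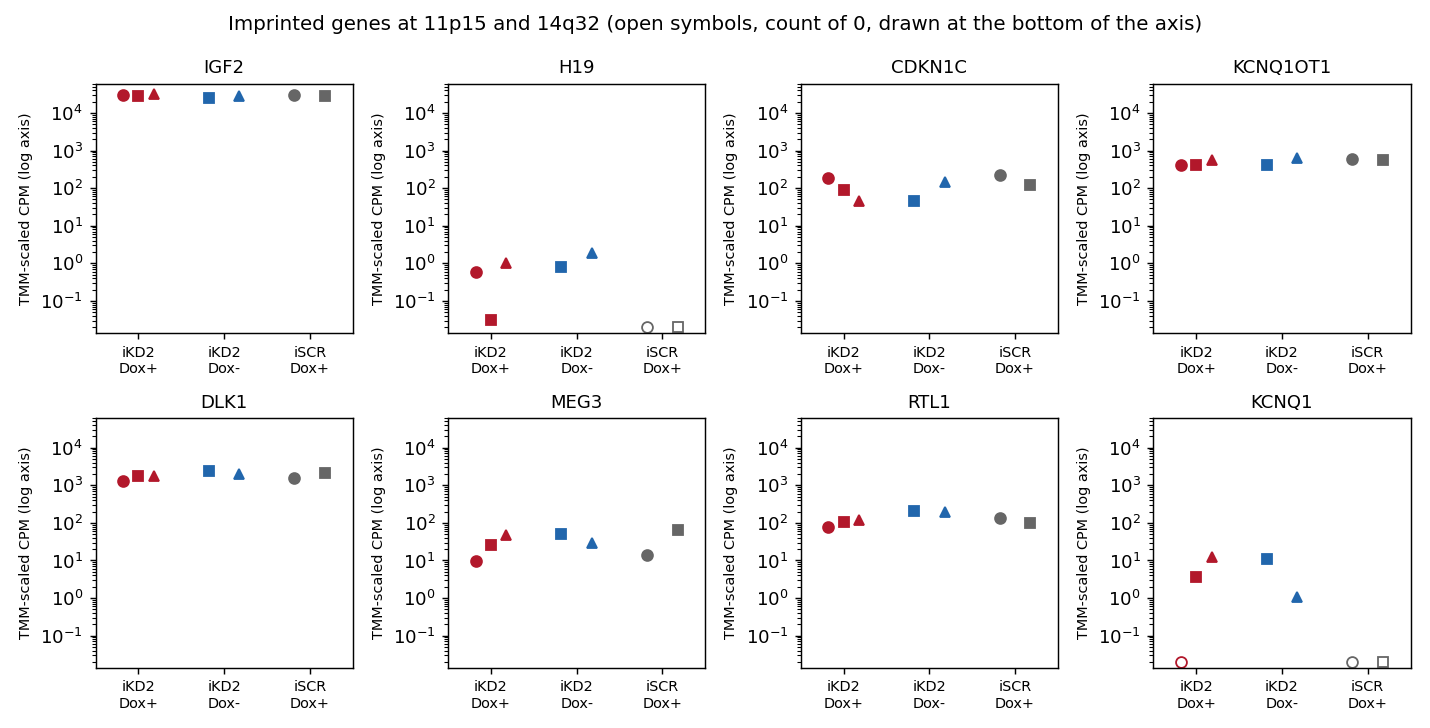
TMM-scaled CPM, on a log axis, of imprinted genes at 11p15 (IGF2, H19, CDKN1C, KCNQ1OT1, KCNQ1) and 14q32 (DLK1, MEG3, RTL1), by group, with a symbol for each library. IGF2 lies at 25024 or above in every library, while H19 does not exceed 1.85.

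Counted by list, none of the 7 genes at 11p15 and none of the 5 at 14q32 passed by edgeR or limma voom in any comparison. At an unadjusted p under 0.05 by edgeR, 1 gene at 11p15 was higher in each comparison, and at 14q32 there were 2 lower against iKD2 Dox-, none against iSCR and 1 higher between the controls, where 3.72%, 6.72% and 4.45% of all genes passed in either direction. The 11p15 gene was OSBPL5 against iKD2 Dox-, where it was at 0.779 and 0.163 CPM. In both comparisons with iSCR it was KCNQ1. With 0 in both iSCR libraries, KCNQ1 passed the filter on low counts through the iKD2 libraries alone, so its higher value there is no support. DESeq2 called 1 of 7 (OSBPL5, higher) and 1 of 5 (RTL1, lower) against iKD2 Dox-, OSBPL5 being named here after its values were seen. Against iSCR Dox+ it called 1 of 7, KCNQ1, higher although at 0 in both iSCR Dox+ libraries and in iKD2 Dox+ a. DESeq2 called many more genes over the whole table than edgeR, with the numbers given in the last section. The edgeR medians were 0.20 and 1.93 at 11p15 and -0.79 and -0.19 at 14q32, against iKD2 Dox- and iSCR Dox+. With 1 library left out they ranged from 0.20 to 1.54 (without iKD2 Dox- b) and from 0.80 (without iKD2 Dox+ a) to 2.51 (without iSCR Dox+ b) at 11p15. At 14q32 they ranged from -0.98 (without iKD2 Dox+ b) to -0.46 (without iKD2 Dox+ a) and from -0.26 (without iKD2 Dox+ c) to 0.011 (without iSCR Dox+ b). The 11p15 value of 1.93 includes genes with libraries at 0, whose fitted fold changes are not bounds. Among neighbours of the small RNAs, CCDC107 beside RMRP ranged from 0.629 to 24.8 CPM and PARP2 beside RPPH1 from 19.3 to 57.6, and neither passed by any of the 3 tools.

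The 8 members together held between 2.37% and 2.94% of the estimated counts of a library. The mean was 2.73% ± 0.19 (SD, n = 3) in iKD2 Dox+, 2.499% ± 0.19 (n = 2) in iKD2 Dox- and 2.60% ± 0.075 (n = 2) in iSCR Dox+. By an exact two-sided permutation test of library values, p was 0.4 for both knockdown comparisons, where 0.2 is the smallest possible, and 0.667 between the controls, where 0.333 is. The summed shares of the small and the long members differed in opposite directions, the second being mostly MALAT1. The 3 small RNAs held 0.549% ± 0.087 in iKD2 Dox+ and 0.705% ± 0.076 in iKD2 Dox-, and the 5 long RNAs 2.18% ± 0.17 and 1.79% ± 0.26 (exact permutation p = 0.2 for each). Of the long members, KCNQ1OT1, MEG3 and H19 had log2 fold changes below 0 in this comparison, and without MALAT1 the share of the other 7 was lower by 0.153 percentage points, at 0.639% against 0.792%.

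Over the 7 libraries, no pair of members was correlated past adjustment over 28 pairs by exact permutation. The highest Pearson r was 0.83 for 7SK and RPPH1 (Spearman rho 0.75, exact permutation p = 0.030 and 0.066, adjusted 0.509 and 0.617). It was 0.06 without the 2 libraries farthest from the median of 7SK, which set most of the range of 7SK. Leaving them out narrows that range, so the lower r does not show what the correlation rested on. 7SK and MALAT1 had the strongest rank relation (rho -0.93, exact permutation p = 0.00675, adjusted 0.189), with r = -0.63 (p = 0.106, adjusted 0.509) and -0.72 without the 2 farthest. Groups of 2 or 3 libraries were too small for values within a group.

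As a description, the genes at 50 CPM or more whose log2 levels followed each member most closely over the 7 libraries were ranked by Pearson r among 4275 or 4276 genes. For 7SK they were RN7SL2 (r = 0.993), ZFHX3-AS1 (0.959) and GUK1 (0.952), and for RMRP they were RSF1, STUM and FAT3 (0.966 to 0.973). For RPPH1 they were COX4I1, RNASEK and PCDHGB4 (0.931 to 0.974). MALAT1 was followed by ANKS1A, NKTR and ANXA11 (0.937 to 0.952), and NEAT1 by TSHZ2, EIF3B and ANP32A (0.933 to 0.968). KCNQ1OT1 was followed by ERLEC1, EIF4B and RPS19 (0.959 to 0.989), MEG3 by ATP9A, LSAMP and DKK3 (0.9696 to 0.9748), and H19 by MKLN1, TRO and ZNF398 (0.932 to 0.962). The points are 7 libraries, and the genes in each share its depth.

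The letters GGACT, the core of the m6A consensus, were searched on the transcribed strand of the longest transcript of each member. They were absent from 7SK and RPPH1 and occurred 1 time in RMRP, where 25.4% of all annotated transcripts of 250 to 350 nt hold them. MALAT1 held 13, or 1.49 per kilobase, MEG3 1.23, KCNQ1OT1 0.862, H19 0.852 and NEAT1 0.835 per kilobase, beside 1.04 over all transcripts pooled. A match is a feature of the sequence and shows no methylation.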

How the data were processed

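The authors trimmed adapters, estimated transcript abundance with Kallisto and summed it per gene with tximport, and the estimated counts deposited are not scaled for depth or length (fastp and kallisto are named in the submitters' processing notes). Versions, genome build, annotation and strand setting are not given in the sources used here. Kallisto divides reads between genes that share sequence. RNA was isolated with the RNeasy Micro Kit, and libraries were made with a SMARTer total RNA kit. How well these steps recovered small RNAs was not tested.

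Counts were rounded, filtered with filterByExpr by group (22926 of 66025 genes), then scaled (TMM). A robust quasi-likelihood fit over the 3 groups (edgeR 4.0.16, R 4.3.3) gave the tests, called at a Benjamini-Hochberg adjusted p of 0.05. SE was obtained from the F statistic. The fit was tested on simulated data. Groups followed the sample labels. The labels do not name separate cultures, and the study describes the libraries of a group as biologically independent. Named genes were METTL14, the members, the 3 most abundant and any called gene of each list, the 3 genes most like each member, and genes overlapping a member at 1 CPM. Coordinates and sequences are of GENCODE 29, matched by gene ID. Members and lists were chosen with earlier results of these data known. DESeq2 1.42.0, limma 3.58.1, other scalings and filters, a replicate block, a pooled control and each library left out were tried.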

Additional observations from a re-analysis of the deposited data

How the results depend on the processing

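No member was called in any alternative except MALAT1 against iKD2 Dox- by limma voom, where 1 passed (0.37). The number of all genes that limma voom called is not given, so this call has no background beside it. Of 402 alternative values of the members' log2 fold changes, 18 changed sign, none past an adjusted p of 0.05, and the other 383 beside MALAT1 kept their sign and side of the threshold. Between the controls, MEG3 (0.019) became -0.022 with DESeq2 size factors and in DESeq2. With all 4 controls pooled, RMRP against iSCR became -0.12 and H19 -0.28, which is no bound. Leaving out 1 library turned the sign in some cases. Between the controls, 7SK ranged from -0.081 (without iKD2 Dox- b) to 0.23, NEAT1 from -0.49 (without iKD2 Dox- c) to 0.52, KCNQ1OT1 from -0.47 to 0.15 (without iKD2 Dox- b) and MEG3 from -0.70 (without iSCR a) to 1.53. Against iSCR, RMRP ranged from -0.23 (without iSCR b) to 0.35, RPPH1 from -0.33 to 0.068 (without iKD2 Dox+ c) and MEG3 from -1.23 to 0.99 (without iSCR b). Against iKD2 Dox-, KCNQ1OT1 ranged from -0.47 to 0.16 (without iKD2 Dox- c). The cause was not tested.

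The difference in share of counts in the members, 0.23, 0.13 and -0.099 percentage points for iKD2 Dox+ against iKD2 Dox-, against iSCR and between the controls, became -0.15, -0.0817 and 0.0714 without MALAT1. With 1 library left out its ranges were 0.095 to 0.360, 0.020 to 0.202 and -0.231 to 0.033. Genes called over the whole table were 9, 6 and 3 in that order, 51, 66 and 32 with no filter beyond 1 count, 55, 75 and 32 at a total of 10 counts, 219, 809 and 492 by DESeq2, 3 and 3 against pooled controls, and 0 for the last in a fit of its groups alone. Leave-one-out counts spanned 2 to 115, 2 to 544 and 2 to 445, highest without iSCR b in all 3. An arm left with 1 library was assumed to vary like the others. Deviations from the group mean correlated at -0.012 to 0.069 between libraries of the same letter. In groups of 2 libraries these deviations mirror each other, so the values cannot decide whether the letters pair the libraries. With the letters as a replicate block, 18, 15 and 8 genes and 0 members were called. RPPH1 against iSCR then became 0.011 and MEG3 between the controls -0.62. Of 210 medians of the lists with 1 library left out, 92 changed sign or moved by over 1.5 times. The 7 of 8 spliceosomal and telomerase RNAs below 0 against iKD2 Dox- became 4 without iKD2 Dox+ c, which was chosen after seeing the data.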
